A study of Arabidopsis thaliana with 12 samples.

Results

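Seedlings of the atdamt1 mutant were compared with wild-type seedlings in the absence of heat, across all genes of the deposited table. The comparison took the 3 atdamt1 control libraries and the 3 wild-type control libraries, 6 of the 12 libraries of the series, by their labels. The table held 32833 genes, of which 17628 had at least 1 RPKM in at least 3 of the 12 libraries and were tested. RPKM are read numbers normalized for transcript length and library depth. The remaining 15205 genes were below that level, and 8864 genes were listed at 0 in all 6 control libraries.

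All plants were Arabidopsis thaliana of the accession Col-0, sampled as seedlings at 10 days of age. Control libraries are labelled 0 h, and the other 6 libraries of the series came from the same genotypes after 2.5 h of heat. Polyadenylated RNA was captured with oligo-dT beads. The labels give neither the allele of atdamt1 nor the number of independent lines, and they do not state whether the libraries of a group came from separately grown plants. The p-values therefore describe the spread among these libraries, part of which may be technical. Whole seedlings were sampled, so fewer cells of a type and less RNA per cell cannot be told apart.

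METTL4 belongs to the MT-A70 family of methyltransferases, enzymes that transfer a methyl group to the N6 position of adenine. Members of the family act on messenger RNA, on small nuclear RNA or on DNA, and in plants the messenger RNA writer is a complex built around MTA and MTB. Methylated adenine in messenger RNA is read by YTH-domain proteins, called ECT proteins in Arabidopsis, and removed by ALKBH-type demethylases. The series concerns the role of the plant METTL4 homolog in tolerance of heat, and the comparison without heat gives the state of the seedlings before that stress.

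The stretches upstream of 3 loci are shown because these loci carry the results: the METTL4 homolog AT1G19340, and AT3G01345 and AT1G75945, the genes that passed the test. Sequences were read from the RefSeq assembly TAIR10.1, 5′ to 3′ on the strand of the gene, and end at the base before the annotated start. Capitals mark TATAAA, the core of a TATA box, on either strand, with overlapping matches merged. For AT3G01345 the window is the whole interval to the neighbouring gene.
AT1G19340, chr1:6684217-6684466, plus strand: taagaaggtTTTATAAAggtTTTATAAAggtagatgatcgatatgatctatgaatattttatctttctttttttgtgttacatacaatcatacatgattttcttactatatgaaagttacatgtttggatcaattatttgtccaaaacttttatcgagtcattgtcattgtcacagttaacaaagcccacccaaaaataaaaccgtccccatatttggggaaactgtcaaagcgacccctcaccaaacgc
AT3G01345, chr3:128995-129137, plus strand: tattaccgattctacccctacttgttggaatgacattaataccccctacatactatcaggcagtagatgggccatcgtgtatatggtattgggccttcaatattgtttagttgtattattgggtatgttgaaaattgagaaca
AT1G75945, chr1:28515917-28516166, minus strand: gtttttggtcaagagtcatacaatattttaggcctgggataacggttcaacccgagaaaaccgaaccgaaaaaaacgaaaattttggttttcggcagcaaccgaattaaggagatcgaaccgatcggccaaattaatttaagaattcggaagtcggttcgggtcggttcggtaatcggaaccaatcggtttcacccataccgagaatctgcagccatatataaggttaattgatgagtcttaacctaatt
Exact TATAAA was found upstream of AT1G19340 and in neither of the other windows. The matches of AT1G19340 lie at the end of its window that is far from the gene. The window of AT1G75945 holds tatataag near the gene, which is not an exact match and is not marked. Variants of the TATA box were not searched, so which of these genes has one is not read from the marks. It was present in 45.6% of 17510 upstream windows of 250 bases and in 30.7% of windows of 143 bases. The evening element AAAATATCT, the G-box CACGTG and the heat shock element, searched on both strands, matched none of the 3 windows. Their shares among windows of 250 bases were 2.58%, 7.40% and 0.434%.

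The 6 control libraries had depths of 21720000 to 23519000 reads. On average 17066 ± 124 genes reached 1 RPKM in wild type and 16672 ± 232 in atdamt1 (SD, n = 3), with no overlap between the groups. The exact permutation test, two-sided, gave p = 0.1, the smallest value that 3 against 3 libraries can give. Chloroplast-encoded genes took 0.320% to 1.07% of the summed RPKM (exact permutation p = 0.7). The first principal component of the 6 libraries held 40.1% of the variance and set replicate 3 of both genotypes apart from the other 4 libraries. The second held 22.9% and separated the genotypes.

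The METTL4 homolog AT1G19340 lies on chromosome 1 at 6684467 to 6687116 of TAIR10.1, plus strand. It was at 2.50, 3.01 and 3.102 RPKM in the wild-type control libraries, from 103, 126 and 129 reads. The atdamt1 control libraries held 0.808, 0.913 and 1.29 RPKM, from 36, 39 and 53 reads. Every atdamt1 library lay below every wild-type library, and all of them still held reads of the gene. The means were 2.87 ± 0.32 and 1.002 ± 0.25 RPKM (SD, n = 3), a ratio of 0.349. The difference on the log2(RPKM + 1) scale was -0.96 ± 0.14 (SE), with a 95% interval of -1.26 to -0.65. Among all genes tested it had the third smallest p, but its limma adjusted p = 0.114 did not pass 0.05. With a pseudocount of 5 or with array weights it passed, at adjusted p = 0.0281 and 0.0355 in limma. In the heat libraries the groups were again separate, with 1.296, 1.33 and 1.54 RPKM in wild type and 0.475, 0.146 and 0.404 RPKM in atdamt1.

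The genes beside AT1G19340 had overlapping groups in control. AT1G19330, the gene before it, held 8.51, 11.2 and 11.9 RPKM in wild type and 6.60, 7.04 and 10.3 RPKM in atdamt1. BES1, a transcription factor of brassinosteroid signalling and the gene after it, held 59.8, 84.0 and 70.4 RPKM in wild type and 81.7, 93.2 and 93.4 RPKM in atdamt1. The log2 differences in control were -0.37 ± 0.17 and 0.33 ± 0.13 (limma adjusted p = 0.935 each). In heat AT1G19330 was separate and lower, with 8.92, 8.33 and 9.22 RPKM in wild type and 7.56, 5.36 and 5.69 RPKM in atdamt1 (log2 difference -0.46 ± 0.17, limma adjusted p = 0.663), and BES1 overlapped.

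Of the 17628 genes tested, 2 passed the limma test at an adjusted p below 0.05 (0.0113%). Both were higher in atdamt1, AT3G01345 and AT1G75945, and none were lower. At an unadjusted p below 0.05 limma gave 816 genes (4.63%). No gene was at 0 in all control libraries of one genotype and at 1 RPKM or more in all of the other.

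AT3G01345 rose from close to 0 to the level of a well-expressed gene. It is annotated as a protein-coding gene with the description "expressed protein", on chromosome 3 at 129138 to 130749 of TAIR10.1, plus strand. The wild-type control libraries held 0.171, 0.225 and 0.0848 RPKM, from 6, 8 and 3 reads. The atdamt1 control libraries held 105, 121 and 101 RPKM, from 3987, 4396 and 3555 reads. All 3 atdamt1 libraries were far above all 3 wild-type libraries, and values within each genotype were close together. The means were 0.160 ± 0.071 and 109 ± 10.4 RPKM (SD, n = 3), a ratio of 681. The log2 difference was 6.57 ± 0.77 (SE), with a 95% interval of 4.88 to 8.25 and a limma adjusted p = 0.0374.

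After heat AT3G01345 was uneven among the mutant libraries. The wild-type heat libraries held 0.0277, 0 and 0.189 RPKM. The atdamt1 heat libraries held 0, 13.4 and 14.7 RPKM, from 0, 469 and 528 reads. Replicate 1 of atdamt1 in heat thus had no read of the gene, while the other two were above every wild-type library. The SD on the log2 scale was 2.26 among the atdamt1 heat libraries and 0.13 among the atdamt1 control libraries, and the test uses 1 spread per gene over all 4 groups. Fitted on the control libraries alone, the same difference had an SE of 0.11 and a limma adjusted p = 8.94e-07. The difference in heat was 2.51 ± 0.77 (limma adjusted p = 0.663). The change of the genotype difference with heat was -4.05 ± 1.09, with an unadjusted p = 0.00306 and a limma adjusted p = 0.979.

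**Figure D1:**
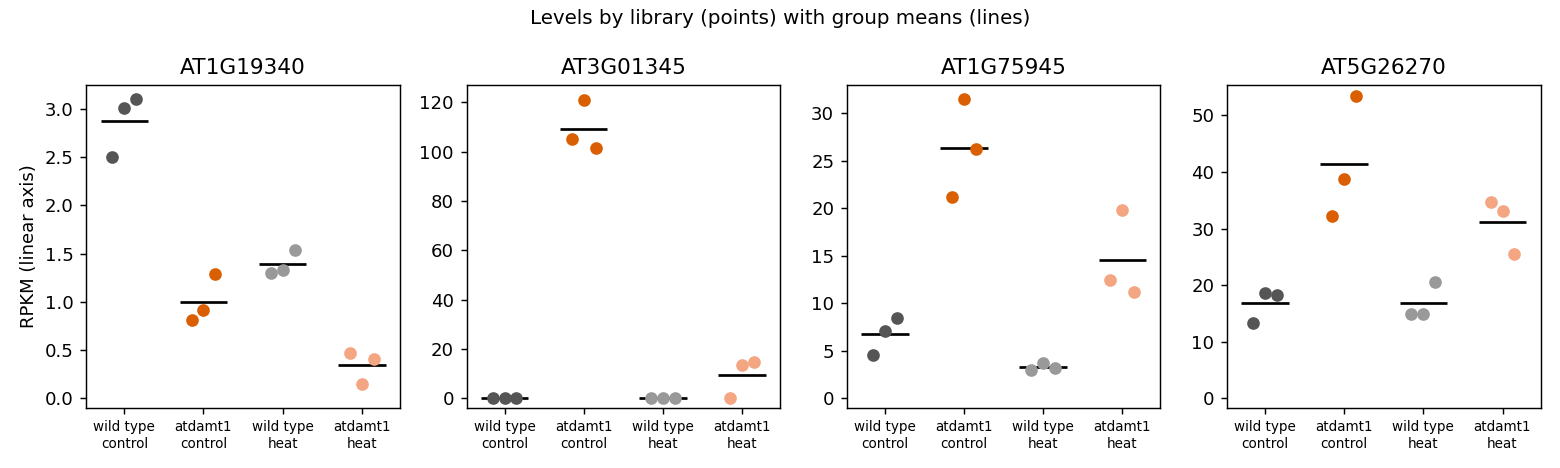
RPKM (linear axes, a scale of its own in each panel) of AT1G19340, AT3G01345, AT1G75945 and AT5G26270 in the 12 libraries, with points for libraries and lines for group means. AT3G01345 lies at 101 to 121 RPKM in the atdamt1 control libraries and below 1 RPKM in every wild-type library, and 1 atdamt1 heat library is at 0.

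Of the genes beside AT3G01345, SEC13A alone was above 0 RPKM, and it did not move with AT3G01345. SEC13A, a subunit of the COPII vesicle coat, lies 143 bases before AT3G01345 on the opposite strand, so the genes point away from each other. SEC13A held 46.5, 52.7 and 50.04 RPKM in wild type and 45.7, 45.0 and 44.8 RPKM in atdamt1. The atdamt1 libraries were all slightly lower, with a log2 difference of -0.13 ± 0.09 (limma adjusted p = 0.935). AT3G00995, the next gene after AT3G01345, was listed at 0 in every library, so no level is read from it. Stretches of the genome resemble AT3G01345, with 76.7% identity over 1466 aligned bases at chr2:2753423-2754854, 80.3% over 471 bases at chr4:4634677-4635140 and 81.3% over 332 bases at chr5:10941257-10941584. Annotated genes at these stretches reached at most 0.0915 RPKM in a control library, and how reads shared between copies were counted is not stated. Those at the chr2 stretch were listed at 0 in all control libraries, so no level is read from them.

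AT1G75945 was the second gene that rose. It is an uncharacterized protein-coding gene on chromosome 1 at 28515245 to 28515916 of TAIR10.1, minus strand. The wild-type control libraries held 4.59, 7.08 and 8.50 RPKM, from 46, 72 and 86 reads. The atdamt1 control libraries held 21.2, 31.6 and 26.2 RPKM, from 230, 328 and 263 reads. The groups did not overlap, and the lowest atdamt1 library was well above the highest wild-type library. The means were 6.72 ± 1.98 and 26.3 ± 5.17 RPKM (SD, n = 3), a ratio of 3.92. The log2 difference was 1.84 ± 0.23 (SE), with a 95% interval of 1.34 to 2.34 and a limma adjusted p = 0.0374.

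The heat libraries, which enter the control contrast only through the estimate of the spread, gave nearly the same difference for AT1G75945. Wild type held 3.002, 3.71 and 3.21 RPKM after heat, and atdamt1 held 12.5, 19.9 and 11.2 RPKM. Again every atdamt1 library was above every wild-type library. The log2 difference in heat was 1.81 ± 0.23 (limma adjusted p = 0.0871), and its change with heat was -0.03 ± 0.32. Under 6 of the alternatives the difference in heat passed, at limma adjusted p-values of 0.0188 to 0.0486. The flanking gene SKP1A, a subunit of SCF ubiquitin ligases, held 162, 166 and 172 RPKM in wild type and 151, 162 and 161 RPKM in atdamt1, a log2 difference of -0.08 ± 0.09 (limma adjusted p = 0.944). BGLU20 on the other side was listed at 0 in every library, so no level is read from it.

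Both calls were close to the threshold in the fit of 12 libraries. Without any 1 of the 6 control libraries neither gene passed, with limma adjusted p-values of 0.151 to 0.308 for AT3G01345 and 0.0978 to 0.308 for AT1G75945, while the log2 differences stayed at 6.49 to 6.62 and 1.62 to 2.01. Fitted on the control libraries alone, AT3G01345 passed at a limma adjusted p = 8.94e-07 and AT1G75945 did not, at 0.516. With 1 library left out of that fit, AT3G01345 passed in all 6 cases and AT1G75945 in none.

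**Figure D2:**
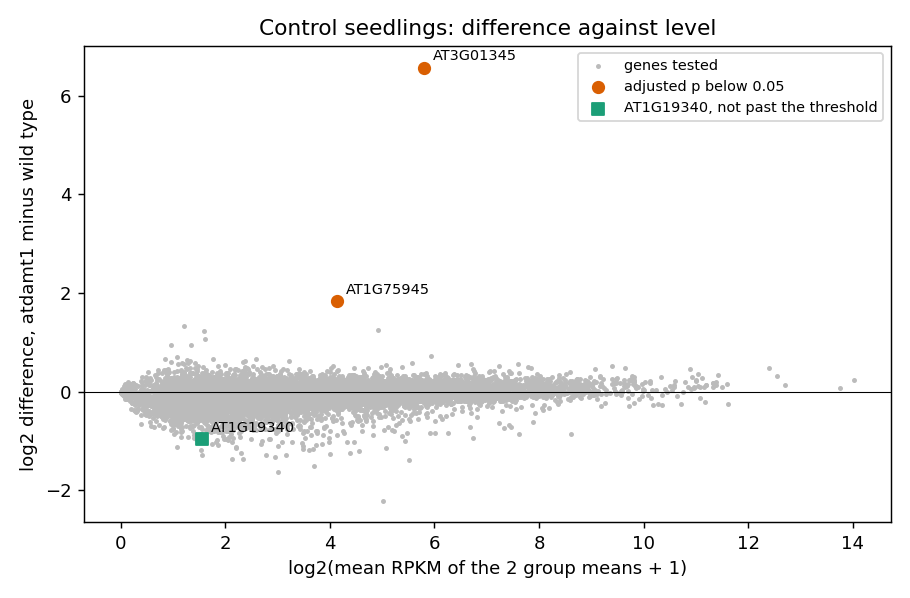
Log2 difference (atdamt1 control minus wild-type control, log2(RPKM + 1) scale) against the mean level (log2 axis) for the 17628 genes tested. AT3G01345 at 6.57 and AT1G75945 at 1.84 stand above the cloud, and AT1G19340 lies at -0.96 among genes of low level.

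For most other genes the interval bounded the difference on the log2(RPKM + 1) scale. The 95% interval lay within a 2-fold difference of RPKM + 1 in both directions for 16702 genes (94.7%) and within 1.5-fold for 13394 genes (76.0%). In genes of low level the same bounds allow larger ratios of RPKM. AT1G19340, for example, had a difference of -0.96 on this scale at an RPKM ratio of 0.349. Differences beyond 1 on the log2 scale were seen for 44 genes, 6 higher and 38 lower in atdamt1. The largest negative difference belonged to AT4G12490, singled out after its values were seen. It held 10.3, 40.01 and 112 RPKM in wild type and 3.73, 17.3 and 5.08 RPKM in atdamt1, groups that overlapped (log2 difference -2.21 ± 0.84, limma adjusted p = 0.935).

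The 3 atdamt1 values did not overlap the 3 wild-type values for 1733 genes (9.83%). Of these, 385 were higher (2.18%) and 1348 lower (7.65%) in atdamt1. This split depended on the scaling. The median log2 difference over all genes tested was -0.07 with RPKM as deposited and 0.00 after median-of-ratios scaling, which gave 826 genes higher and 608 lower. TMM scaling gave 854 and 600, and quantile normalization 769 and 557.

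Among genes higher in every atdamt1 control library with a mean of at least 5 RPKM in atdamt1, AT5G26270, a gene of unknown function, had the largest log2 difference outside the called genes. It held 13.3, 18.7 and 18.3 RPKM in wild type and 32.2, 38.7 and 53.4 RPKM in atdamt1. The groups were separate, by a log2 difference of 1.24 ± 0.20 (limma adjusted p = 0.188), and they were separate again in heat, with 14.9, 14.9 and 20.6 RPKM against 34.7, 33.1 and 25.6 RPKM. NEET, an iron-sulphur cluster protein, held 47.8, 38.1 and 49.7 RPKM in wild type and 69.2, 87.4 and 70.3 RPKM in atdamt1. Its log2 difference was 0.73 ± 0.13 (limma adjusted p = 0.31) in control and 0.02 ± 0.13 in heat, where the groups overlapped. The other 8 genes of this kind had log2 differences of 0.54 to 0.67 and a limma adjusted p = 0.935. They include ERF060, a transcription factor of the ethylene response factor family, GLP1, a germin-like protein, and RVE2, a MYB-like protein related to the clock genes.

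At the low end 12 separated genes were named by the same rule. AT3G25190, a homolog of vacuolar iron transporters, held 28.8, 15.5 and 10.2 RPKM in wild type and 4.01, 3.44 and 10.0 RPKM in atdamt1. The highest mutant value was just under the lowest wild-type value, and the log2 difference was -1.50 ± 0.54. AAP2, an amino acid permease of the phloem, held 26.1, 26.3 and 27.8 RPKM in wild type and 12.4, 4.17 and 21.9 RPKM in atdamt1. Wild type was even and the mutant libraries were spread, with a log2 difference of -1.25 ± 0.50. LTP3, a lipid transfer protein, held 9.88, 4.83 and 11.3 RPKM against 1.27, 4.04 and 3.64 RPKM, a log2 difference of -1.29 ± 0.35.

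TGA7, a bZIP transcription factor, held 9.17, 11.7 and 14.3 RPKM in wild type and 2.67, 5.74 and 8.47 RPKM in atdamt1, with a log2 difference of -1.03 ± 0.29. LNK2, a coactivator of the circadian clock, held 6.58, 10.0 and 8.95 RPKM in wild type and 3.39, 3.47 and 4.82 RPKM in atdamt1. Its log2 difference of -0.95 ± 0.22 in control was -0.59 ± 0.22 in heat. UCC2, a copper-binding uclacyanin, held 30.2, 20.6 and 33.7 RPKM against 8.82, 12.6 and 19.7 RPKM, a log2 difference of -1.03 ± 0.29. ABCG14, which exports cytokinin, was at -0.84 ± 0.24 and MLO12, of the powdery mildew susceptibility family, at -0.78 ± 0.28. All 12 genes of this kind had a limma adjusted p = 0.935. The 22 genes named by this rule kept their direction under median-of-ratios, TMM and quantile scaling. They were picked for large differences, and these scalings moved the median over all genes tested only from -0.07 to at most 0.01. A change of direction was therefore hardly possible.

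**Figure D3:**
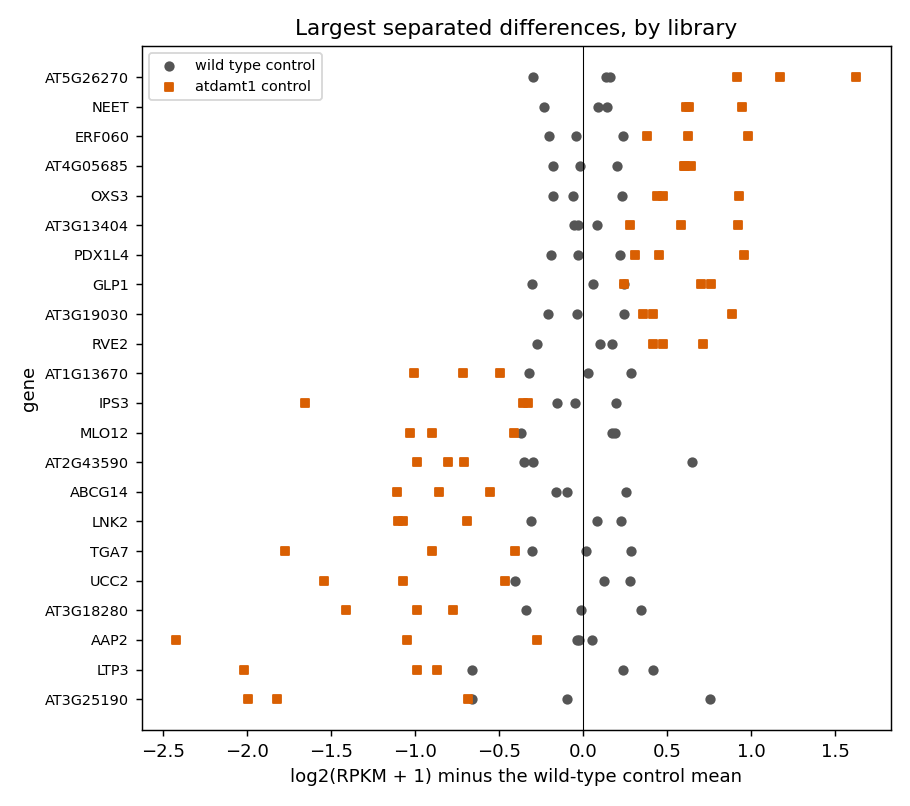
Log2(RPKM + 1) of each control library minus the wild-type control mean, for the 22 genes with the largest differences among those whose groups do not overlap and which reach a mean of 5 RPKM. Circles are wild-type and squares atdamt1 libraries, and AT3G25190, UCC2 and MLO12 have a mutant library close to a wild-type library.

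The heat libraries held the same measure in other samples. Of the 10 higher genes, 9 had the same direction in heat and 1, AT5G26270, was again separate. Of the 12 lower genes, 8 had the same direction and 0 were separate in that direction, while UCC2 was separate in the opposite one. The median difference in heat over all genes tested was -0.08, so lower in atdamt1 was the more common direction there. Some of these differences in heat were close to 0, as for NEET at 0.02 and MLO12 at -0.01. Over all 385 genes higher in control, 17 were also separate and higher in heat (4.42%), beside 1.74% of all genes tested. Over all 1348 genes lower in control, 216 were also separate and lower in heat (16.0%), beside 11.7% of all genes tested. Limma called 0 genes for the genotype difference in heat and 0 for its change with heat, with 1326 and 596 genes at an unadjusted p below 0.05.

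**Figure D4:**
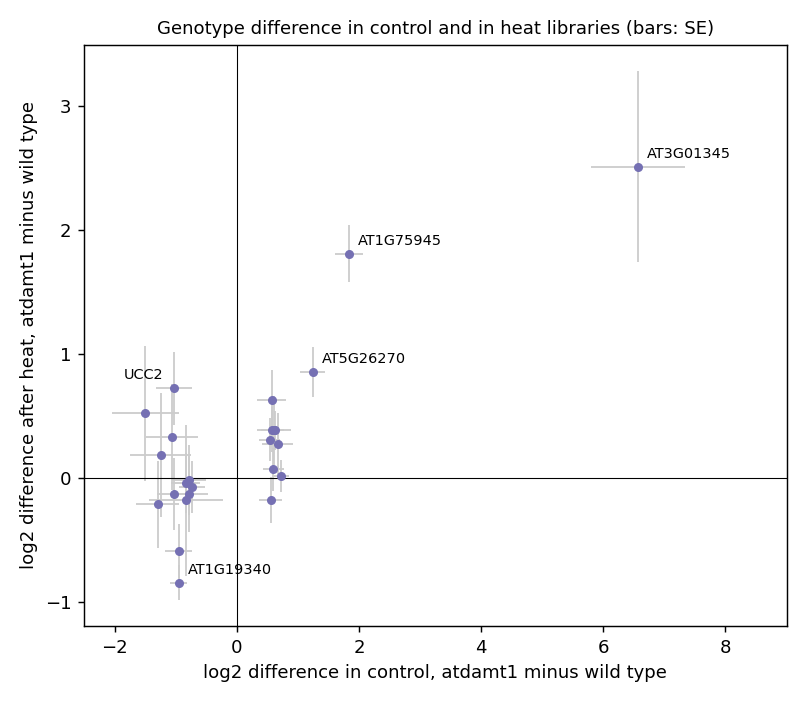
Log2 difference between atdamt1 and wild type in control (x axis) and after heat (y axis) for the called genes, AT1G19340 and the 22 separated genes, with bars for the SE. AT1G75945 lies at 1.84 and 1.81, AT3G01345 at 6.57 and 2.51, and UCC2 at -1.03 and 0.73.

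Gene lists were read by their counts and medians, beside a median of -0.07 and 9.83% of genes separate over all genes tested. No member of any of the 33 lists passed the limma test, with 22 loci at an unadjusted p below 0.05, and of 404 listed loci tested 27 were separate (6.68%), 8 higher and 19 lower. The 95% interval lay within a 2-fold difference of RPKM + 1 for 342 of the 404 (84.7%). The 404 include members below 1 RPKM in all 6 control libraries, such as 8 of the small heat shock proteins. Adding 1 to the RPKM keeps their difference near 0, so their intervals say little about control.

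The machinery of adenine methylation was close to its wild-type level apart from AT1G19340 itself. Of 15 members tested, 3 were separate and lower, AT1G19340, HAKAI and FIO1, and 0 were separate and higher. HAKAI, a ubiquitin ligase of the writer complex, held 10.4, 10.8 and 10.5 RPKM in wild type and 8.36, 10.3 and 9.95 RPKM in atdamt1. FIO1, which methylates U6 small nuclear RNA, held 3.67, 3.42 and 3.79 RPKM against 3.31, 3.34 and 3.22 RPKM. These differences were small, at -0.14 ± 0.10 and -0.11 ± 0.11 on the log2 scale. The writers MTA and MTB were both at -0.08, the reader ECT2 at -0.09 ± 0.10 and the demethylase ALKBH10B at -0.11 ± 0.21. The median of the list was -0.09.

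Of 17 genes of cytosine methylation tested, DME, a DNA glycosylase that removes methylated cytosine, and SUVH6, a histone methyltransferase, were separate and lower, at -0.16 ± 0.12 and -0.08 ± 0.10. The maintenance methyltransferase MET1 was at -0.07 ± 0.14, and the list median was -0.12. Among loci known to be released when DNA methylation is lost, FWA was at 0.258 RPKM or less in every control library. SDC was listed at 0 in all 6 control libraries. SUP was listed at 0 in all 12, as were MYC2 and LHCB1.5, which seedlings commonly express, so no level is read from it. QQS, an orphan gene whose level varies with its DNA methylation, held 0.402, 11.3 and 6.10 RPKM in wild type and 0.990, 1.16 and 1.67 RPKM in atdamt1. Wild-type replicate 1 was below all mutant libraries and the groups overlapped (log2 difference -1.14 ± 0.68).

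Small heat shock proteins, chaperones that hold unfolded proteins, had 17 members tested. Of these, 8 were below 1 RPKM in all 6 control libraries and entered the test through the heat libraries, so their control values say little about a difference. The other 9 had a median of -0.09, and 0 were separate. The summed level of the list was 116 to 144 RPKM in wild type and 122 to 145 RPKM in atdamt1. HSP18.5, the most abundant, held 53.7, 46.5 and 74.3 RPKM in wild type and 60.0, 67.2 and 74.0 RPKM in atdamt1, with overlapping groups. HSP101, the disaggregase needed for acquired thermotolerance, held 4.204, 3.44 and 3.85 RPKM against 3.31, 4.08 and 3.17 RPKM. Its log2 difference was -0.10 ± 0.35, so a moderate difference could not be detected in this fit. That SE comes from 1 spread over all 4 groups, and the heat libraries were uneven. They held 538 to 1247 RPKM in wild type and 324 to 900 RPKM in atdamt1. The control means were 3.83 ± 0.38 and 3.52 ± 0.49 RPKM (SD, n = 3). The SE values of the genes that follow are formed in the same way. Among 18 other chaperones BAG6 was separate and lower at -0.31 ± 0.31, and among 18 heat shock factors and regulators HSFA5 at -0.18 ± 0.13. The medians of these lists were -0.08 and -0.13.

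In the clock list of 26 genes RVE2 was separate and higher, and LNK2, RVE8 and GRP8 separate and lower. RVE8, a MYB-like activator, held 0.707, 1.37 and 0.796 RPKM in wild type and 0.526, 0.605 and 0.568 RPKM in atdamt1. GRP8, a clock-controlled RNA-binding protein, held 336, 347 and 316 RPKM against 307, 292 and 290 RPKM. The core genes CCA1, LHY and TOC1 overlapped, at -0.11 ± 0.25, -0.07 ± 0.19 and -0.06 ± 0.14. The median of the list was -0.09.

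The auxin list had 16 members tested, a median of -0.24 and 3 separate and lower genes, beside 7.65% of all genes tested. All 3 belong to the GH3 family, whose members conjugate auxin to amino acids. The mean log2 level of the list was 2.71, 3.44 and 3.17 in wild type and 2.72, 2.87 and 2.92 in atdamt1. These groups overlapped, with wild-type replicate 1 below every mutant library. GH3.5 held 5.001, 6.40 and 5.31 RPKM in wild type and 3.54, 3.24 and 3.45 RPKM in atdamt1. GH3.6 held 8.24, 16.6 and 8.13 RPKM against 5.77, 5.49 and 7.70 RPKM, and GH3.2 was at -0.50 ± 0.34. Their differences in heat were -0.10, -0.36 and -0.09. The medians of the salicylic acid, jasmonate and abscisic acid lists were -0.07, -0.03 and -0.02, with 0 separate members.

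Photosynthesis genes encoded in the nucleus had a median of 0.11 over 34 members, which was 0.19 after median-of-ratios and 0.00 after quantile scaling. The separate members were 3 small subunits of Rubisco, all higher. RBCS2B held 4640, 3895 and 5017 RPKM in wild type and 6664, 5792 and 6244 RPKM in atdamt1, a log2 difference of 0.47 ± 0.14, which was 0.12 under quantile normalization. LHCB2.1 and LHCB2.2, which encode antenna proteins, had the opposite sign, at -0.68 ± 0.27 and -0.72 ± 0.26, with overlapping groups. Leaf markers summed to 16119 to 19946 RPKM in wild type and 19663 to 22938 RPKM in atdamt1, and all 4 were above 0 in every library. Of the 4, 3 had a log2 difference above 0 and 1 below, at -0.29, and 0 were separate. Their mean log2 level overlapped, at 11.02, 10.81 and 11.02 in wild type and 11.26, 10.95 and 11.11 in atdamt1. The part of the leaf markers in these values was not tested.

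Root markers were uneven among the libraries. The 13 root markers summed to 1599, 2057 and 1874 RPKM in wild type and 1334, 1359 and 2036 RPKM in atdamt1, nearly all of it PYK10, and 0 to 4 of them were at 0 in a library. The endodermis gene CASP1 held 15.38, 2.26 and 0.202 RPKM in wild type and 1.41, 3.48 and 0.356 RPKM in atdamt1. TIP2;3, a root aquaporin, held 8.07 RPKM in wild-type replicate 1 and at most 0.228 RPKM in the other 5 libraries. Over the 7 root markers tested, the mean log2 level was 3.75 in wild-type replicate 1 and 2.52 to 2.85 in the other 5 libraries. The sum, led by PYK10, went the other way and was the lowest of wild type in that replicate. The median log2 difference of the list was -0.30. The part of root genes in the lower genes was not tested.

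Aliphatic glucosinolate genes, which make defence compounds from methionine, had the lowest median of the lists with more than 1 member tested, at -0.41 over 15 members. The mean log2 level of the list was 3.73, 4.12 and 3.64 in wild type and 3.72, 2.75 and 3.69 in atdamt1. Only atdamt1 replicate 2 was below wild type, and IMD1 was the 1 separate member. BCAT4, which starts the methionine chain elongation, held 14.9, 21.6 and 19.6 RPKM in wild type and 13.4, 3.42 and 15.9 RPKM in atdamt1 (log2 difference -0.93 ± 0.43, overlapping groups). In heat the median of the list was -0.43, with 9 of 15 members separate and lower beside 11.7% of all genes tested. Cell division genes had a median of -0.18 over 16 members and 0 separate, and in heat a median of -0.31 with 7 separate and lower.

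**Figure D5:**
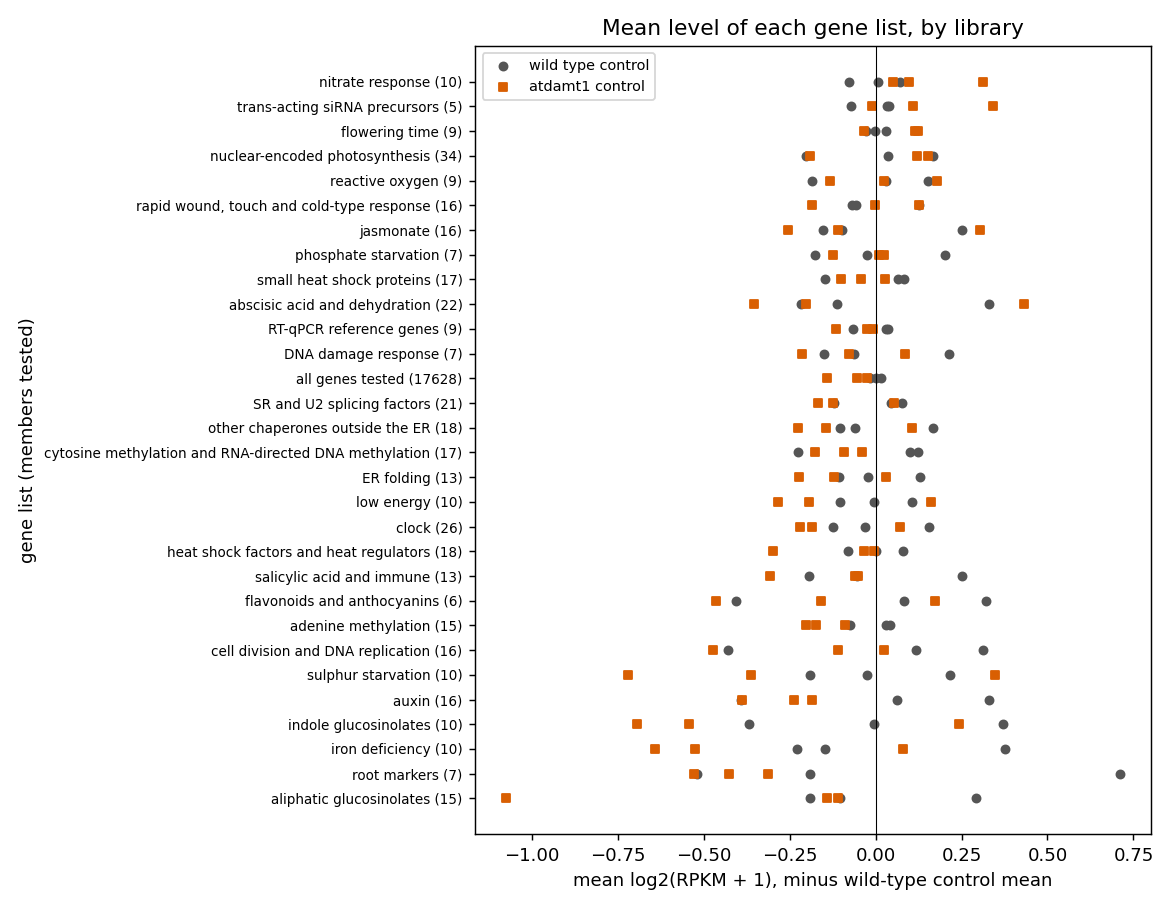
Mean log2(RPKM + 1) of the tested members of each gene list in the 6 control libraries, minus the wild-type control mean, with member numbers in brackets. Circles are wild-type and squares atdamt1 libraries, and the low aliphatic glucosinolate point is atdamt1 replicate 2.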

How the data were processed

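The authors deposited RPKM values for 32833 genes in 12 libraries. Per the submitters' processing notes, STAR, DESeq2 and the build TAIR10 were used, with no role given. How reads were counted, with or without strand, and on which annotation is not given in the sources used here, so overlapping and antisense genes are uncertain. Groups came from the labels. RPKM multiplied by exon length in TAIR10.1 gave whole reads within 0.1 reads for 96.7% to 99.4% of values above 0 per library, and from these the depths.

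Genes with at least 1 RPKM in at least 3 libraries were tested with limma 3.58.1 in R 4.3.3 on log2(RPKM + 1), two-sided. The fit held 12 libraries, 4 group means, a mean-variance trend and 8 residual degrees of freedom, with Benjamini-Hochberg adjustment over 17628 genes. A fold change on this scale understates the change of low genes. The fit was also run on simulated reads, with the same spread for every gene and no difference between heat and control. These settings are simpler than the real libraries, so the run does not show how many real differences the fit misses. Replicates of a group differed by more than sampling noise.

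The comparison and the 33 gene lists were chosen with earlier results of these data known. Named were AT1G19340 with its neighbours and the neighbours of called genes, all called genes, up to 12 genes per direction with separate groups and a mean of at least 5 RPKM, and per list the member with the smallest p. Other list members are named for their role or for separate groups, after their values were seen.
Alternatives were other pseudocounts, filters, scalings, variance settings, a replicate block, voom on recovered reads, a chloroplast covariate and leaving out libraries.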

Additional observations from a re-analysis of the deposited data

Results flagged for a closer look

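For 3 named genes every atdamt1 library lay on one side of every wild-type library in control and on the other side after heat. They had been named for their control values. Over all genes tested 9.83% were separate in control, and in heat 1.74% were separate and higher and 11.7% separate and lower. The share separate in opposite directions was not counted. UCC2 (AT2G44790) had a log2 difference of -1.03 in control and 0.73 in heat. NIR1 (AT2G15620), nitrite reductase, had 0.38 in control and -0.22 in heat. TCH4 (AT5G57560), a touch-induced cell wall enzyme, had 0.21 in control and -0.37 in heat. The change of the difference with heat had unadjusted p-values of 0.00127, 0.00279 and 0.00351 and a limma adjusted p = 0.979 for each, so none passed the test.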

How the results depend on the processing

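The count of 2 called genes was 0 with a pseudocount of 0.1, with no filter on low values, with voom weights on recovered reads and with the chloroplast share as a covariate, where 714, 1317, 1040 and 866 genes had an unadjusted limma p below 0.05. It was 1 after median-of-ratios or TMM scaling and for the control libraries alone, and 2 or 3 under the remaining planned settings that used all libraries. Leaving out 1 control library gave 0 calls in each of the 6 fits of the other libraries, with 503 to 1557 genes at an unadjusted p below 0.05. Chosen after seeing the data, the control libraries alone without 1 library gave 1 to 2 calls, and without replicate 3 of both control groups the fit with the heat libraries gave 0 and that of the control libraries alone 1 higher and 1 lower. AT3G01345 passed in 16 and AT1G75945 in 9 of 29 alternatives, with log2 differences of 4.46 to 9.37 and 1.42 to 2.02. Of the 29, 8 were added after seeing the data, mostly fits of the control libraries alone, in which AT3G01345 passed and AT1G75945 did not. The gap between 16 and 9 came from these added fits. Genes with separate groups numbered 2659 to 4799 without 1 library and 7431 without replicate 3 of both groups, since fewer values separate more easily. SEP3 (AT1G24260) was at 0.16, and between -0.013 (without atdamt1 replicate 2) and 0.402 when 1 library was left out.

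Same-numbered control libraries deviated together with correlations of 0.211, 0.035 and 0.527, so the numbers were not taken to pair samples. The value of replicate 3 was the highest of all pairs, while wild-type replicate 1 correlated best with atdamt1 replicate 2, at 0.304. With the replicate block the count was 2 over 12 libraries and 1 in the control libraries alone. In the latter the block moved the genes at an unadjusted limma p below 0.05 from 598 to 1045. The limma adjusted p of AT1G75945 moved there from 0.516 to 0.058. Intervals cover the spread of 3 libraries per group, and genes of few reads are limited by depth.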

Other observations

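A pair of long noncoding RNAs below the level of the named-gene rule, chosen after their values were seen, had separate groups in control and in heat. AT3G05955 held 0.508, 0.0833 and 0.335 RPKM in wild type, from 6, 1 and 4 reads, and 1.80, 2.93 and 2.11 RPKM in atdamt1, from 23, 36 and 25 reads. All mutant libraries were higher, and in heat they held 2.76, 1.35 and 1.16 RPKM against 0.0821, 0 and 0 RPKM in wild type. AT2G06995 had the opposite order, with 1.67, 1.27 and 2.77 RPKM in wild type and 0.199, 0.104 and 0.644 RPKM in atdamt1. The log2 differences in control were 1.32 and -1.13 (limma adjusted p = 0.188 and 0.387), so neither passed.

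The nitrate list had a median of 0.17 over 10 members, with NIR1 separate and higher at 201, 186 and 208 RPKM in atdamt1 and 172, 133 and 152 RPKM in wild type. The phosphate list had a median of 0.02 over 7 members, and the sulphur and iron lists -0.21 and -0.28 over 10 members each, with 0 separate. In the low energy list 3 of 10 members were separate, beside 9.83% of all genes tested, and the median was -0.11. BT2, a scaffold protein of nutrient signalling, was separate and higher, and ASN1, asparagine synthetase, and TPS8, of the trehalose phosphate synthase family, were separate and lower, at 0.41, -0.41 and -0.40 on the log2 scale.

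Of the 5 trans-acting siRNA precursors tested, 0 were separate and the median was 0.16. The 21 splicing factors, the 9 genes of flowering time, the 9 of reactive oxygen and the 13 of folding in the endoplasmic reticulum had 0 separate members, with medians of -0.07, 0.06, -0.02 and -0.10. Indole glucosinolate genes had a median of -0.25 over 10 members and flavonoid genes -0.10 over 6, with 0 separate. In the rapid response list of 16 genes TCH4 alone was separate, and the median was -0.01. Of the 9 reference genes used in RT-qPCR, UBQ10 and GAPC1 were separate and lower, at -0.14 and -0.21. Seed markers summed to at most 0.306 RPKM in a control library, and of the flower markers only SEP3 reached the level for testing.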
